A study of Marchantia polymorpha and Lactuca sativa with 27 samples.

Results

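Whole plants of the liverwort Marchantia polymorpha, a bryophyte, were compared after growth on medium labelled no nitrate and on full medium. The comparison used 6 of the 27 RNA-seq libraries of the study, chosen by their column names in the count table: 3 wild-type libraries labelled no nitrate and 3 wild-type libraries from full medium. The wild type was Tak-1, a male laboratory strain. Plants raised from gemmae, the asexual buds of the liverwort, were moved at an age of 7 days under continuous light and spent 5 days on medium with 0 mM nitrate, on medium with 0 mM phosphate or on full medium, which held 2 mM phosphate and 10 mM nitrate. The line Mpwrky10, named for a WRKY transcription factor gene, was grown on the same media, and every Marchantia group held 3 libraries. The labels do not say whether a starvation medium also differed in other salts, nor whether the libraries of a group are separate cultures. The p-values therefore reflect differences among these libraries only, and part or all of that spread may be technical.

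The media are named here as labelled, and transporter genes bear on those labels. Transporter genes of the PTB class, which carry phosphate, rose in the libraries labelled no nitrate. There 7 of 7 tested were called higher, and 1 of 7 labelled no phosphate, each against the same full-medium libraries. Over all tested genes 20.6% and 26.3% were called higher (49.1% in either direction labelled no phosphate). MpPTB5, MpPTB1, MpPTB2, MpPTB4 and MpPTB3 passed the filter on low counts through the libraries labelled no nitrate, so the PTB share is not read against these. MpPTB8, with counts in every group, had 261 to 408 CPM labelled no nitrate. It had 19.7 to 22.9 CPM labelled no phosphate and 23.0 to 39.8 CPM in full medium. Ammonium transporter genes (AMT) rose in both. In the direct test 5 of 8 were lower in the libraries labelled no nitrate than in those labelled no phosphate, with 0 higher. Over all tested genes 14.6% were lower. MpAMT1.5 passed the filter through the libraries labelled no phosphate, so the AMT share is not read against that of all genes. MpAMT1.4, with counts in every wild-type group, had 30.0 to 39.6 CPM labelled no nitrate. It had 239 to 270 CPM labelled no phosphate and 34.5 to 39.2 CPM in full medium. The 2 starvation labels may therefore have been exchanged. This was not tested, and each group is called by its label throughout.

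Plants short of phosphate are known to raise high-affinity phosphate transporters, to release phosphate from nucleotides and phospholipids, and to replace phospholipids of their membranes with sulfolipids and galactolipids. Plants short of nitrate are known to raise transporters of nitrate and ammonium and to lower photosynthesis and protein synthesis. In Marchantia, shortage of nutrients is also known for phenolic pigments of the cell wall, the auronidins, whose synthesis starts from phenylalanine.

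Rises were larger than falls. Of 13016 genes tested, 34.5% were called at a Benjamini-Hochberg adjusted p under 0.05 in edgeR's quasi-likelihood test, 2679 (20.6%) being higher and 1807 (13.9%) lower without nitrate as labelled. The libraries of the groups did not overlap in 6452 genes (49.6%). At 2-fold or more, 1044 genes were higher (8.02%) and 64 lower (0.492%). At 8-fold or more the counts were 257 higher and 12 lower. Called rises had a median log2 fold change of 0.69 and called falls of -0.30, against -0.00085 over all tested genes. Without the labelled-no-nitrate library 3, only the falls moved by more than 1.5 times, to 1134 called, with 2228 rises. Of the 1044 genes, 41.9% averaged under 1 CPM (counts scaled to a common library size) in full medium and 26 had no count there, while 37 of the 64 genes with a 2-fold fall averaged under 1 CPM in the libraries labelled no nitrate; selection by fold change favours low levels in the lower group. Together they held 3.26% of all CPM in the libraries labelled no nitrate and 0.972% in full medium. The RNA came from whole plants, so a change in the share of a cell type and a change of RNA per cell cannot be told apart.

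**Figure D1:**
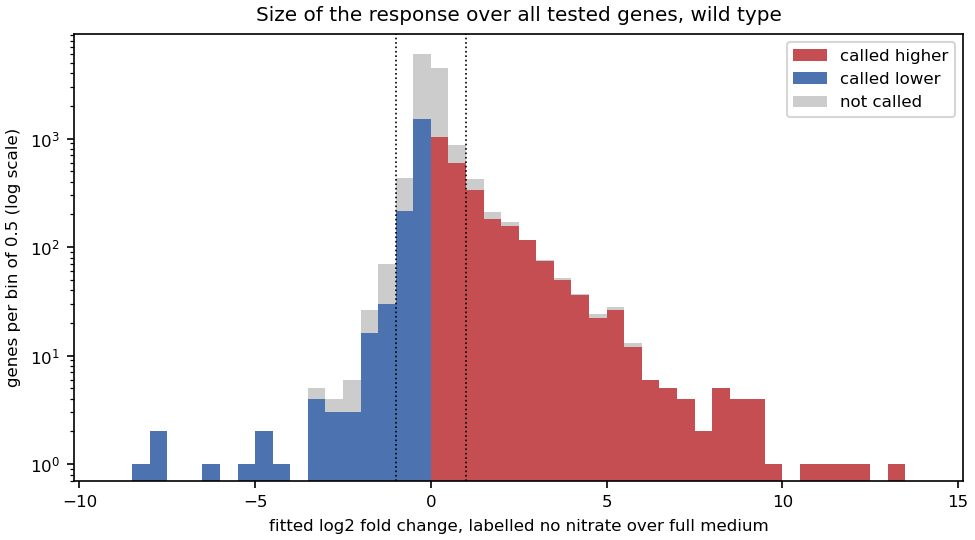
Number of tested genes (log axis) by fitted log2 fold change, labelled no nitrate over full medium, in bins of 0.5, with called rises in red, called falls in blue and other genes in grey. Past 2-fold, marked by dotted lines, lie 1044 called rises and 64 called falls.

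The 6 libraries held 18165419 to 25361300 counts. Library 1 labelled no nitrate and library 3 of full medium lay nearer to the other group than their partners did. On the first principal component of the 6 libraries, with 79.4% of the variance, the libraries labelled no nitrate lay at 28.9, 55.3 and 51.4, and those from full medium at -54.5, -48.3 and -32.8. The same was seen over 1103 genes chosen in other libraries, those that rose at least 2-fold in Mpwrky10. Their median log2 level relative to the full-medium mean was 1.26, 1.81 and 1.69 in the libraries labelled no nitrate, and -0.08, -0.03 and 0.12 in full medium. Library 1 was the lowest of the libraries labelled no nitrate in 76.3% of these genes, and library 3 the highest of full medium in 55.1%. With both libraries left out, a setting chosen after seeing the data, 2484 genes were called higher and 1580 lower.

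**Figure D2:**
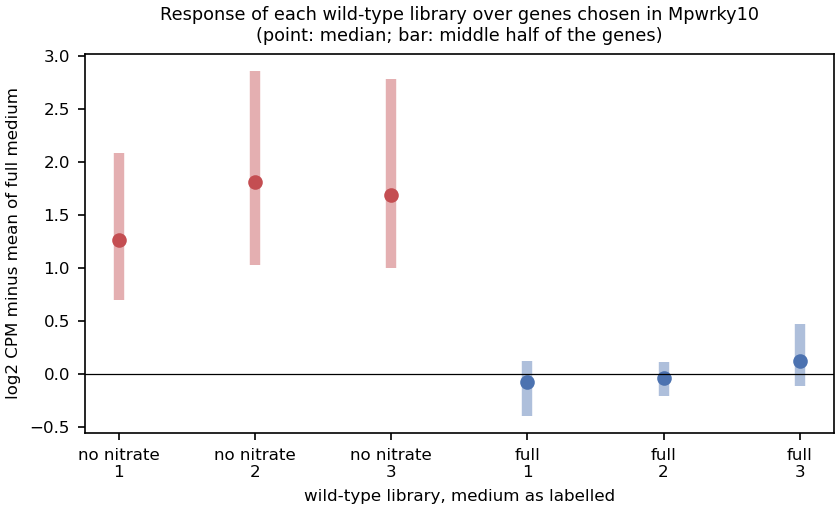
Log2 CPM relative to the mean of full medium over the 1103 genes that rose at least 2-fold in Mpwrky10, as the median (point) and interquartile range (bar) in each wild-type library. Library 1 labelled no nitrate has the lowest median of its group, 1.26, and library 3 of full medium the highest of its group, 0.12.

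Phosphate uptake genes made some of the largest rises among genes with a symbol. PTB transporters are related to the sodium-coupled phosphate carriers of yeast and algae. All 7 tested members were called higher. Of these MpPTB5, MpPTB1, MpPTB2, MpPTB4 and MpPTB3 were at or near 0 in full medium and labelled no phosphate. They passed the filter on low counts through the libraries labelled no nitrate, so the share of tested members called is not read against that of all genes. MpPTB6, the eighth, was too low to test, with 5 counts in the 3 libraries labelled no nitrate and 0 in full medium. The summed level of the class was 343 to 509 CPM in the libraries labelled no nitrate and 27.3 to 46.7 CPM in full medium, so the groups were far apart.

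MpPTB8 (Mp4g19700, chromosome 4) had 261, 343 and 408 CPM in the libraries labelled no nitrate, against 22.9, 22.3 and 19.7 CPM labelled no phosphate and 23.0, 32.6 and 39.8 CPM in full medium. Every library labelled no nitrate lay above all others, with a log2 fold change over full medium of 3.41 ± 0.26 (SE, adjusted p = 8.1e-07). MpPTB4 was close to off outside the libraries labelled no nitrate. It had 51.2, 42.7 and 48.3 CPM there, 0 in all 3 libraries labelled no phosphate, and 0, 0.118 and 0.0514 CPM in full medium. Its fitted log2 fold change was 9.45 ± 0.74 (adjusted p = 1.16e-05), and 10.55 without full-medium library 2, which held most of the 4 counts of that group.

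MpPTB5, MpPTB1 and MpPTB2 had no count in full medium. MpPTB5 had 8.55, 17.9 and 17.7 CPM in the libraries labelled no nitrate, at least 310-fold above a floor of 3 counts over the full-medium group. MpPTB1 had 4.39, 12.6 and 11.8 CPM, at least 200.3-fold above the same floor. MpPTB2 had 3.84, 2.91 and 3.79 CPM, at least 76.4-fold above it. Adjusted p-values of these genes were 3.6e-06, 0.000318 and 9.14e-06. Library 1 labelled no nitrate was the lowest of its group for MpPTB5 and MpPTB1 and the highest for MpPTB2. MpPTB3 had 6.15, 10.4 and 10.2 CPM in the libraries labelled no nitrate and 0.151, 0.196 and 0 CPM in full medium (log2 fold change 6.11 ± 0.65, adjusted p = 2.61e-06, and 6.75 without full-medium library 2).

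These genes are neighbours. MpPTB4, MpPTB6, MpPTB2, MpPTB3, MpPTB1 and MpPTB5 carry the consecutive locus numbers Mp4g16560 to Mp4g16610 on chromosome 4. Reads may be shared between such close copies, since the treatment of reads that match several genes is not given in the sources used here, so single levels within the run are uncertain to that extent. MpPTB7 (Mp8g10380), which lies elsewhere, changed least: 7.86, 11.4 and 8.44 CPM labelled no nitrate, against 4.19, 5.50 and 6.84 CPM in full medium (log2 0.74 ± 0.23, adjusted p = 0.0176). Its call was lost without full-medium library 1 or 2 or without labelled-no-nitrate library 2, with adjusted p up to 0.112. It was also the PTB gene called higher in the libraries labelled no phosphate, at 10.8, 12.2 and 11.8 CPM.

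In Mpwrky10, whose libraries are not shared with the wild type, 6 of the 7 tested PTB genes were called higher in the libraries labelled no nitrate. Over all tested genes 23.2% were. Several PTB genes passed the filter through libraries labelled no nitrate and were at or near 0 in full medium of Mpwrky10. The PTB share is therefore not read against that of all genes here either. The log2 fold changes there were 7.98 for MpPTB4, 6.63 for MpPTB5, 8.79 for MpPTB1, 7.40 for MpPTB2, 4.03 for MpPTB3 and 2.41 for MpPTB8. MpPTB1 and MpPTB2 had no count in full medium of Mpwrky10, so their fitted values are no bounds. Mean levels labelled no nitrate were lower in Mpwrky10 than in the wild type, such as 9.45 against 47.4 CPM for MpPTB4 and 2.65 against 9.59 CPM for MpPTB1. That difference in level was not tested here. No PTB gene passed the test of a difference between the genotypes in response, the lowest adjusted p being 0.161 for MpPTB8. For MpPTB1 and MpPTB2 this test could not decide, with SE of 8485 and 3928. It was also imprecise for MpPTB4 and MpPTB5, with log2 differences of -1.47 ± 3.25 and -4.63 ± 2.59. A p that misses the threshold does not show that the responses were equal.

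**Figure D3:**
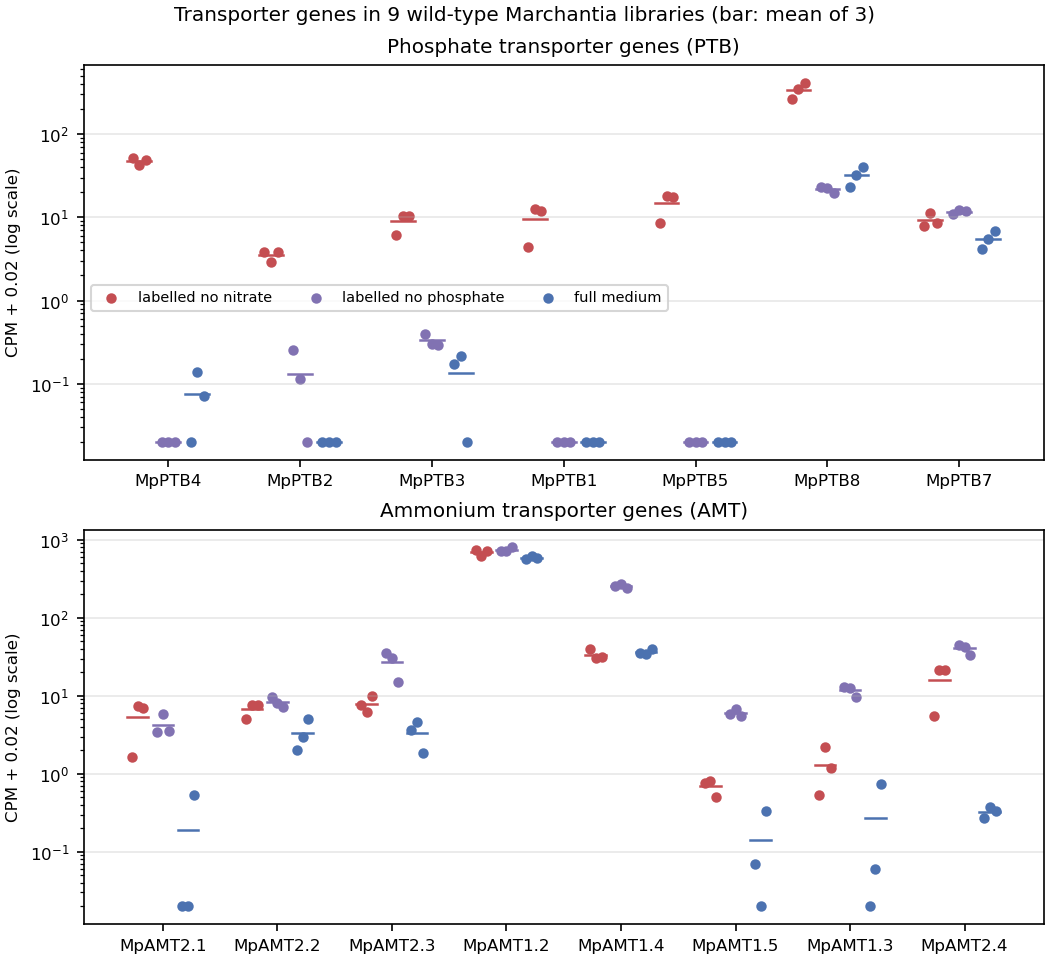
CPM plus 0.02 (log axis) of the tested PTB genes (upper panel) and AMT genes (lower panel) in each wild-type library labelled no nitrate (red), labelled no phosphate (purple) and from full medium (blue), with bars at the means of 3. MpPTB8 lies at 261 to 408 CPM in the red libraries and 23.0 to 39.8 CPM in the blue ones, while MpAMT1.4 lies at 239 to 270 CPM in the purple libraries alone.

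Other genes of phosphate handling moved in both directions. Of 7 tested members of the SPX, VPT, NLA and LPR genes, 2 were called higher (28.6%) and 4 lower (57.1%), with a median log2 of -0.56. Over all tested genes the shares were 20.6% and 13.9%. MpSPX, of the family of phosphate-sensing regulators, had 127, 150 and 126 CPM in the libraries labelled no nitrate and 72.7, 75.5 and 80.7 CPM in full medium (log2 0.82 ± 0.08, adjusted p = 3.79e-07). MpVPT, a carrier of phosphate across the vacuole membrane, had 124, 159 and 148 CPM, against 56.5, 57.9 and 63.4 CPM in full medium (log2 1.28 ± 0.12, adjusted p = 8.53e-07). Neither gene's groups overlapped. Both were also above the libraries labelled no phosphate, by 0.90 for MpSPX and 0.82 for MpVPT on the log2 scale.

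The LPR genes are multicopper oxidase relatives, known in Arabidopsis from the response of roots to low phosphate. MpLPR7 was the largest fall among named genes, with 19.8, 15.1 and 16.2 CPM in the libraries labelled no nitrate and 56.1, 65.5 and 66.0 CPM in full medium (log2 -1.87 ± 0.16, adjusted p = 4.58e-07). MpLPR11 had 2.63, 2.69 and 1.98 CPM, against 4.49, 6.4 and 6.06 CPM in full medium (log2 -1.21 ± 0.20, adjusted p = 0.000131). Both LPR genes fell in Mpwrky10 as well, by 1.73 and 0.73 on the log2 scale. MpLPR2 was called lower (log2 -0.56, adjusted p = 0.0142), but not without full-medium library 1 or labelled-no-nitrate library 1 (adjusted p up to 0.0927). MpLPR4 was not called (log2 -0.05), and MpLPR1 was too low to test.

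MpNLA, named for a ubiquitin ligase that acts on phosphate transporters in Arabidopsis, had 1.76, 1.23 and 0.855 CPM in the libraries labelled no nitrate, 8.93, 9.51 and 8.24 CPM labelled no phosphate and 2.47, 2.16 and 2.57 CPM in full medium. Its fall against full medium (log2 -0.88 ± 0.31, adjusted p = 0.0346) lost the call when any of 5 libraries was left out, with adjusted p up to 0.152. Only leaving out labelled-no-nitrate library 1 kept it. Its difference from the libraries labelled no phosphate was larger, at -2.77 on the log2 scale (adjusted p = 1.05e-06).

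Of 11 tested genes of membrane lipid remodelling 8 were called higher (72.7%, against 20.6% of all tested genes), 0 lower and 3 neither, with a median log2 of 0.44. MpGDPD, a glycerophosphodiester phosphodiesterase that frees glycerol phosphate from deacylated phospholipids, had 478, 504 and 498 CPM in the libraries labelled no nitrate, against 76.9, 77.0 and 84.7 CPM labelled no phosphate and 95.0, 132 and 109 CPM in full medium (log2 over full medium 2.14 ± 0.22, adjusted p = 8.75e-06). MpSQD, of sulfolipid synthesis, had 110, 155 and 146 CPM, against 57.0, 61.4 and 64.2 CPM labelled no phosphate and 72.5, 72.5 and 76.2 CPM in full medium (log2 0.89 ± 0.10, adjusted p = 2.03e-06). For both genes the libraries labelled no phosphate lay below those of the other media on average.

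Phospholipase D enzymes cleave the head group from phospholipids. MpPLD7 had 5.55, 13.6 and 12.9 CPM in the libraries labelled no nitrate and 0.151, 0.667 and 2.11 CPM in full medium (log2 3.47 ± 0.56, adjusted p = 0.000298), and 4.60 without full-medium library 3. MpPLD8 (log2 1.01, adjusted p = 0.000476) and MpPLD6 (log2 0.39, adjusted p = 0.000443) rose less. MpPLD4 (log2 1.12) lost its call without full-medium library 3 or labelled-no-nitrate library 3, with adjusted p up to 0.0914. MpPLD1 (log2 0.44) lost it without full-medium library 1 or 2 or labelled-no-nitrate library 2 or 3, with adjusted p up to 0.18. MpPAH, a phosphatidate phosphatase, rose by 0.28 (adjusted p = 0.00342). MpMGDG of galactolipid synthesis, MpPLD5 and MpGDPDL had log2 values of -0.05, -0.05 and 0.06 and were not called, and MpPLD2 was too low to test.

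Ammonium transporter genes also rose, though less than in the libraries labelled no phosphate. The name table holds 17 AMT genes, of which 8 were tested and 8 had no count in the 6 libraries. Of the tested genes 6 were called higher (75%, against 20.6% of all tested genes), and the filter keeps genes that are high in any group. MpAMT2.4 had 5.55, 21.2 and 21.1 CPM in the libraries labelled no nitrate, against 45.3, 42.4 and 33.6 CPM labelled no phosphate and 0.252, 0.353 and 0.308 CPM in full medium (log2 over full medium 5.66 ± 0.75, adjusted p = 9.56e-05). Library 1 labelled no nitrate was far below its partners but stayed above every full-medium library. MpAMT2.4 lay 1.35 below the libraries labelled no phosphate on the log2 scale (adjusted p = 0.0379).

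MpAMT2.1 had 1.62, 7.45 and 6.95 CPM in the libraries labelled no nitrate and 0, 0 and 0.514 CPM in full medium. All 10 counts of that gene in full medium came from library 3. Its fitted log2 of 5.03 ± 0.95 (adjusted p = 0.000973) was 9.79 without that library and 4.35 without full-medium library 2. MpAMT2.2 (log2 1.03, adjusted p = 0.00533) rose with overlapping groups. MpAMT2.3 (log2 1.22, adjusted p = 0.0183) rose too and lost its call without full-medium library 3 or labelled-no-nitrate library 3 (adjusted p up to 0.0923). MpAMT1.5 and MpAMT1.3 were near the limit of detection, with 39 and 72 counts in the libraries labelled no nitrate and 7 and 15 in full medium. MpAMT1.5 (log2 2.55, adjusted p = 0.00952) was 1.87 without full-medium library 2 (adjusted p = 0.0524) and 4.58 without library 3. MpAMT1.3 (log2 2.39, adjusted p = 0.0472) was 5.50 without full-medium library 3. Its call was lost without full-medium library 1 or 2 or labelled-no-nitrate library 2 or 3, with adjusted p up to 0.198.

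The remaining ammonium transporter genes did not pass the test. In Mpwrky10, 3 of the 8 AMT genes were called higher in the libraries labelled no nitrate, where 23.2% of all tested genes were. MpAMT1.2 had 733, 627 and 727 CPM in the libraries labelled no nitrate and 573, 618 and 583 CPM in full medium (log2 0.23 ± 0.13, adjusted p = 0.174). MpAMT1.4 had 39.6, 30.0 and 31.0 CPM labelled no nitrate, 257, 270 and 239 CPM labelled no phosphate and 35.8, 34.5 and 39.2 CPM in full medium. Its log2 over full medium was -0.12 ± 0.46 in the libraries labelled no nitrate (adjusted p = 0.869).

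Members of the NPF transport family carry nitrate, peptides or hormones. Of 21 tested members of the nitrate and peptide transport list 6 were called higher (28.6%, near the 20.6% of all tested genes) and 1 lower, with a median log2 of 0.27. MpNPF34 had 14.7, 19.5 and 18.1 CPM in the libraries labelled no nitrate, 48.5, 53.8 and 41.3 CPM labelled no phosphate and 5.90, 4.32 and 5.76 CPM in full medium (log2 over full medium 1.72 ± 0.36, adjusted p = 0.00258). MpNPF23 rose by 1.2, MpNPF33 by 1.19 and MpNPF35 by 0.54 on the log2 scale, each with the groups apart. MpNPF29, MpNPF6 and the single fall, MpNPF31, had log2 values of 0.39, 0.29 and -0.33. Each of these lost its call when any of at least 4 libraries was left out, with adjusted p up to 0.192, 0.167 and 0.146.

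Regulators linked to nitrogen did not pass the test. None of 6 was called by edgeR's test, namely MpNIN, MpRWP1, MpCIPK-A, MpCIPK-B, MpCBL-A and MpCBL-B, with MpRWP1 at a log2 of -1.44 (adjusted p = 0.0992). At an unadjusted p under 0.05 there were 2, and DESeq2 called 0. MpNIN, of the family of nitrate-responsive factors, had 278, 244 and 261 CPM in the libraries labelled no nitrate and 274, 287 and 263 CPM in full medium (log2 -0.07 ± 0.06, adjusted p = 0.35). Enzymes of nitrate reduction and ammonium assimilation were not analysed here, as the name table gave no symbol for them.

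Proton pumps, which energise uptake, rose in 10 of 18 tested members (55.6%, against 20.6% of all tested genes), with 1 lower and a median log2 of 0.59. MpHA16 had 10.1, 17.9 and 13.7 CPM in the libraries labelled no nitrate and 3.43, 3.26 and 1.34 CPM in full medium (log2 2.36 ± 0.28, adjusted p = 7.89e-06). MpHA6 had 7.90, 10.0 and 11.2 CPM, against 1.43, 2.72 and 1.80 CPM labelled no phosphate and 2.42, 2.59 and 3.44 CPM in full medium (log2 1.79 ± 0.30, adjusted p = 0.000192). The pyrophosphate-driven pump MpAVP3 rose by 0.41 (adjusted p = 1.75e-05). Of 10 tested potassium, sodium and anion channels 2 were called higher and 3 lower. Of 8 metal transport genes 1 was higher and 3 lower, where 13.9% of all tested genes were lower. The potassium channel MpAKT1 fell by 0.67 and the zinc and iron carrier relatives MpZIP3 and MpZIP2 by 0.74 and 0.47 on the log2 scale. The rises were of MpTPK1 by 0.57, MpALMT3 by 0.32 and MpZIP4 by 0.51.

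**Figure D4:**
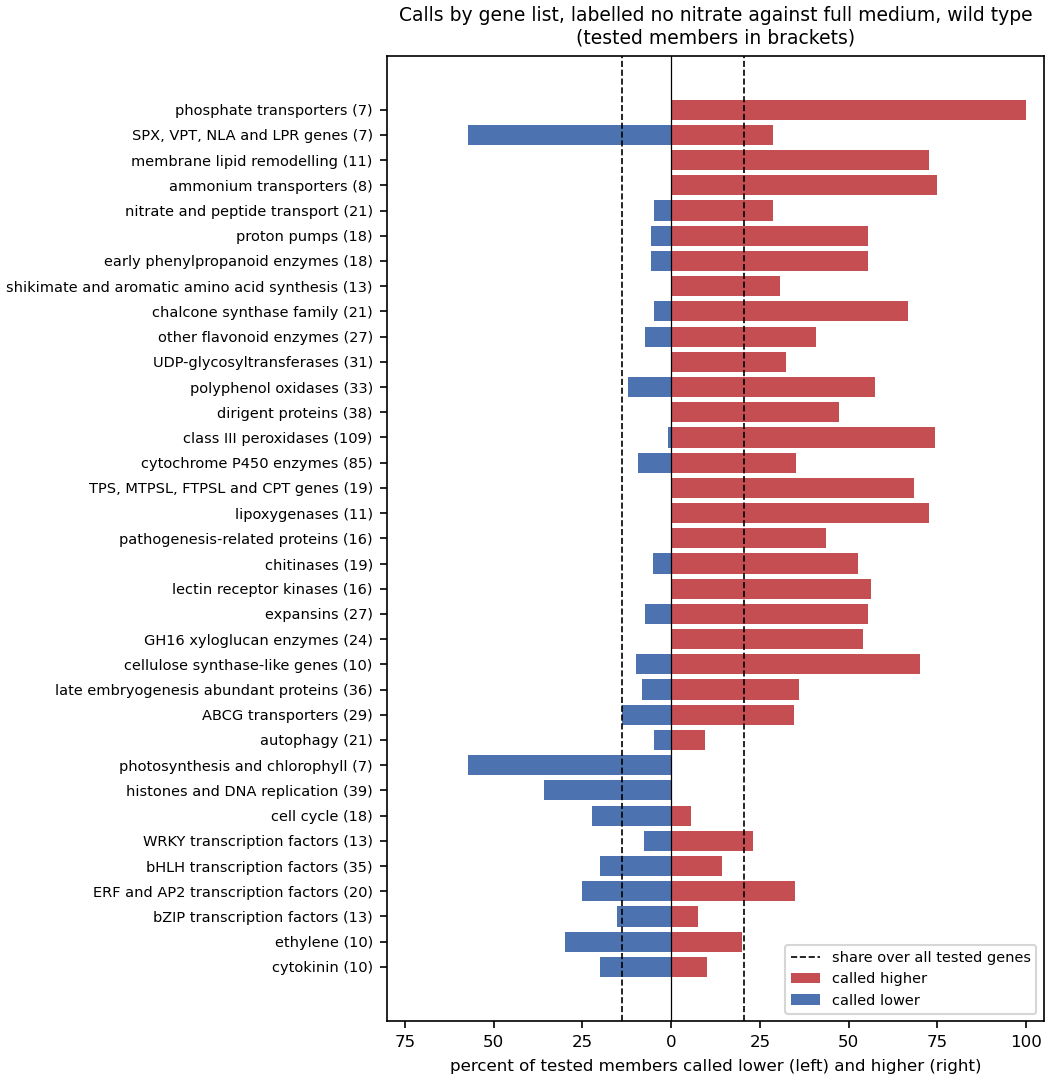
Percent of tested members called higher (right) and lower (left) in the libraries labelled no nitrate against full medium, by gene list, with the number tested in brackets and the shares over all tested genes, 20.6% and 13.9%, as dashed lines. Phosphate transporters reach 100% higher, a share not read against the dashed lines, since several members passed the low-count filter through the libraries labelled no nitrate. No tested histone or replication gene was called higher.

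Enzymes of phenolic metabolism were called in unequal shares. O-methyltransferases were called higher in 3 of 12 and lower in 1, glycosyltransferases were called higher in 10 of 31 and lower in 0, and other flavonoid enzymes were called higher in 11 of 27 and lower in 2, where 20.6% of all tested genes were higher and 13.9% lower. Class III peroxidases, secreted enzymes that oxidise phenolics in the wall, were called higher in 81 of 109 tested members and lower in 1, with 27 not called and a median log2 of 2.68 (2.60 with the 9 genes at 0 in full medium set to their bound). The annotation names 164 peroxidases, of which 55 were too low to test, and the filter keeps genes that are high in any group. Their summed level was 2569 to 3502 CPM in the libraries labelled no nitrate and 1379 to 1677 CPM in full medium. MpPOD137 had 2.22, 7.12 and 4.12 CPM labelled no nitrate and 0 in full medium, at least 93.5-fold above the floor. MpPOD13 was also at 0 in full medium and at least 78.3-fold above the floor. MpPOD165 had 97.3, 107 and 111 CPM, against 59.7, 61.7 and 59.2 CPM in full medium (log2 0.80 ± 0.08, adjusted p = 1.25e-06). Against the libraries labelled no phosphate, 14 of the 109 were higher and 21 lower. Set against the same full-medium libraries, those labelled no phosphate had 86 of 109 called higher, where 26.3% of all tested genes were.

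Early phenylpropanoid enzymes, which turn phenylalanine into cinnamic acids, were called higher in 10 of 18 (55.6%) and lower in 1. Over all tested genes 20.6% were higher and 13.9% lower. MpC4H3, a cinnamate hydroxylase, had 42.2, 58.2 and 58.2 CPM in the libraries labelled no nitrate and 13.1, 18.9 and 20.5 CPM in full medium (log2 1.59 ± 0.20, adjusted p = 2.89e-05). The phenylalanine ammonia lyase genes MpPAL1 and MpPAL9 rose by 1.2 and 1.15. The chalcone synthase family, the entry to flavonoids, was called higher in 14 of 21 and lower in 1. MpPKS/CHS-like3 had 154, 244 and 218 CPM, against 74.4, 73.8 and 70.8 CPM labelled no phosphate and 60.9, 64.1 and 65.1 CPM in full medium (log2 over full medium 1.70 ± 0.14, adjusted p = 4.5e-07). Its libraries labelled no nitrate lay above both other groups.

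A run of 7 neighbouring loci on chromosome 4, Mp4g14160 to Mp4g14220, held MpPAL-like2, MpPAL4, 4 chalcone synthase genes and 1 gene without a symbol, all called higher by at least 2-fold. MpPKS/CHS15 within it had 108, 169 and 145 CPM in the libraries labelled no nitrate and 58.9, 41.5 and 43.7 CPM in full medium. MpAUS, an enzyme of auronidin pigment synthesis, had 1.53, 5.6 and 6.25 CPM in the libraries labelled no nitrate and 0.151, 0.196 and 0.0514 CPM in full medium (log2 4.94 ± 0.65, adjusted p = 3.19e-05). MpR2R3-MYB14, a regulator of auronidin synthesis, had 1.11, 2.02 and 2.08 CPM, against 0.555, 0.510 and 1.03 CPM in full medium (log2 1.32 ± 0.46, adjusted p = 0.0332). Its call was lost without full-medium library 1 or 2 or labelled-no-nitrate library 2 or 3, with adjusted p up to 0.129.

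Polyphenol oxidases, copper enzymes that turn phenols into quinones, were called higher in 19 of 33 (57.6%) and lower in 4 (12.1%). Over all tested genes 20.6% were higher and 13.9% lower, so the share of falls was near that of all genes. MpPPO32 had 111, 133 and 128 CPM in the libraries labelled no nitrate, 6.46, 5.90 and 7.31 CPM labelled no phosphate and 9.33, 10.5 and 7.45 CPM in full medium (log2 over full medium 3.76 ± 0.14, adjusted p = 7.42e-12). MpPPO38 was at 0 in full medium and at 0.601, 4.20 and 1.55 CPM labelled no nitrate, at least 43.4-fold above the floor. Its fitted log2 of 8.45 was 7.47 without labelled-no-nitrate library 2. Dirigent proteins, which guide the coupling of phenolics, were called higher in 18 of 38 and lower in 0. MpDIR9 had 164, 260 and 259 CPM, against 78.0, 71.6 and 106 CPM in full medium (log2 1.42 ± 0.18, adjusted p = 4.92e-05).

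Gene lists named for defence differed in their counts, where 20.6% of all tested genes were called higher and 13.9% lower. Pathogenesis-related proteins were called higher in 7 of 16 and lower in 0, with 9 not called. Immune receptor genes of the NBS-LRR type were called higher in 5 of 20 (25%, against 20.6% of all tested genes) and lower in 2, with a median log2 of 0.0015. MpPR1o had 45.9, 87.0 and 78.4 CPM in the libraries labelled no nitrate, 2.19, 2.25 and 4.14 CPM labelled no phosphate and 0.403, 1.06 and 0.668 CPM in full medium (log2 over full medium 6.56 ± 0.63, adjusted p = 7.72e-06). MpPR5b had 138, 346 and 302 CPM, against 44.0, 43.7 and 45.3 CPM labelled no phosphate and 31.3, 31.8 and 55.8 CPM in full medium (log2 2.73 ± 0.34). Chitinases, which cut fungal walls, were called higher in 10 of 19 and lower in 1. MpGH19.3 had 33.3, 112 and 111 CPM, against 1.05, 0.656 and 1.72 CPM labelled no phosphate and 2.02, 1.85 and 5.24 CPM in full medium (log2 4.85 ± 0.64, and 5.47 without full-medium library 3). In all 3 genes library 1 labelled no nitrate was the lowest of its group and still above every library of the other media.

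Lipoxygenases, which oxidise fatty acids, were called higher in 8 of 11 and lower in 0, while of 5 genes of oxylipin signalling 0 were higher and 1 lower. Over all tested genes 20.6% were higher and 13.9% lower. MpLOX10 had 296, 299 and 313 CPM in the libraries labelled no nitrate, 100.5, 102 and 120 CPM labelled no phosphate and 145, 151 and 198 CPM in full medium (log2 over full medium 0.88 ± 0.15, adjusted p = 0.000386). Lectin receptor kinases were called higher in 9 of 16 and lower in 0. The cupin gene MpCupin85, of a family of small barrel-shaped proteins, had 10.1, 26.3 and 23.5 CPM, against 0.0504, 0.0785 and 0 CPM in full medium. With 3 counts in full medium its ratio was 419, with a 95% counting interval of 143 to 2030. Its fitted log2 of 8.58 was 9.30 without full-medium library 2.

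Lists of cell wall genes also differed in their counts, where 20.6% of all tested genes were called higher and 13.9% lower. Of 27 tested expansins, which loosen walls, 15 were called higher, 2 lower and 10 neither. Carbohydrate esterases, which trim wall polymers, were called higher in 2 of 13 (15.4%, against 20.6% of all tested genes) and lower in 0, with a median log2 of 0.05. MpExpansin11 had 13.3, 27.5 and 25.4 CPM in the libraries labelled no nitrate and 1.46, 1.65 and 2.42 CPM in full medium (log2 3.58 ± 0.43, adjusted p = 3.34e-05). MpExpansin34 fell, with 14.2, 9.30 and 8.28 CPM, against 0.95, 1.08 and 1.48 CPM labelled no phosphate and 25.9, 27.8 and 24.8 CPM in full medium (log2 over full medium -1.30 ± 0.17, adjusted p = 1.57e-05). MpExpansin32 fell by 0.86. GH16 xyloglucan enzymes were called higher in 13 of 24 and lower in 0, with 11 not called. Cellulose synthase-like genes were called higher in 7 of 10, among them MpCSLD2 (log2 3.20 ± 0.35) and MpCSLD5 (log2 3.73 ± 0.54, and 4.37 without full-medium library 3).

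Falls of genes with a symbol were small, with 10 of at least 2-fold and 0 of at least 4-fold. Over all tested genes 64 fell at least 2-fold and 18 at least 4-fold. MpPSK, whose symbol is that of the peptide hormone phytosulfokine, had 45.2, 34.1 and 40.9 CPM in the libraries labelled no nitrate and 87.4, 91.6 and 92.7 CPM in full medium (log2 -1.17 ± 0.15, adjusted p = 2.35e-05). MpXPL had 262, 186 and 180 CPM, against 549, 545 and 535 CPM labelled no phosphate and 492, 416 and 409 CPM in full medium (log2 -1.07 ± 0.15, adjusted p = 8.48e-05). The largest falls were of genes without a symbol, such as Mp5g24330, at 0.786, 0.448 and 0.909 CPM labelled no nitrate and 13.7, 19.3 and 17.8 CPM in full medium.

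Of 39 tested histone and replication genes 0 were called higher, 14 lower (35.9%, against 13.9% of all tested genes) and 25 neither, with a median log2 of -0.20. MpCAF2, of the chromatin assembly factor, fell by 0.66 (adjusted p = 0.000653), and the helicase subunits MpMCM7 and MpMCM2 by 0.47 and 0.45. The cell cycle factor MpE2F had 26.3, 25.9 and 25.3 CPM in the libraries labelled no nitrate and 34.1, 35.8 and 32.0 CPM in full medium (log2 -0.40 ± 0.08, adjusted p = 0.000562). Of 7 photosynthesis and chlorophyll genes 0 were higher, 4 lower and 3 neither. MpRBCS, the small subunit of Rubisco, had 327, 288 and 309 CPM labelled no nitrate, 121, 124 and 127 CPM labelled no phosphate and 361, 398 and 437 CPM in full medium. Its fall of 0.37 (adjusted p = 0.00489) was smaller than that in the libraries labelled no phosphate, from which it differed by 1.32 (adjusted p = 2e-08).

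Called shares of transcription factor families are set against 20.6% higher and 13.9% lower over all tested genes. Among WRKY factors 3 of 13 were higher (23.1%) and 1 lower, and among bHLH factors 5 of 35 were higher (14.3%) and 7 lower (20%), both near those shares. Among ERF and AP2 factors 7 of 20 were higher (35%) and 5 lower (25%). MpERF18 had 96.4, 92.9 and 97.0 CPM in the libraries labelled no nitrate, 56.6, 58.5 and 62.4 CPM labelled no phosphate and 25.8, 36.7 and 33.9 CPM in full medium (log2 over full medium 1.57 ± 0.10, adjusted p = 3.6e-09). MpCTR1, a kinase of the ethylene pathway, had 438, 494 and 532 CPM, against 658, 651 and 638 CPM labelled no phosphate and 220, 242 and 265 CPM in full medium (log2 1.01 ± 0.09, adjusted p = 1.94e-07). MpIAMT1, which methylates the hormone auxin, had 11.4, 10.4 and 11.5 CPM, against 3.53, 2.79 and 3.08 CPM in full medium (log2 1.83 ± 0.20, adjusted p = 2e-06). The cytokinin response regulators MpRRB and MpRRA fell by 0.42 and 0.25.

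Markers of other tissues were followed, since whole plants hold every tissue. Oil body cell markers summed to 80.5 to 85.4 CPM in the libraries labelled no nitrate and 77.0 to 86.8 CPM in full medium. Of these 5 genes MpABCG1 was called higher and MpC1HDZ lower, by 0.26 and -0.23 on the log2 scale. Both lost the call when any of at least 5 libraries was left out, with adjusted p up to 0.171 and 0.179. The gemma cup markers MpGCAM1, MpKAR and MpROP summed to 228 to 244 CPM, against 235 to 256 CPM in full medium, and edgeR called 0 of 3, with 1 at an unadjusted p under 0.05 and 0 by DESeq2. MpROP held most of that sum. MpGCAM1 had 2.68, 3.70 and 2.62 CPM labelled no nitrate, above 2.37, 1.53 and 1.70 CPM in full medium (log2 0.69, adjusted p = 0.0674 in edgeR's test). In Mpwrky10 MpGCAM1 was called higher by the same test (log2 1.16, adjusted p = 0.00364). Markers of male organs summed to 1.02 to 1.82 CPM, against 0.432 to 1.08 CPM in full medium, with 0 of 2 tested genes called by edgeR or DESeq2 and 0 at an unadjusted p under 0.05. Of these MpLC7 had no count in the 6 libraries and MpPRM 1 count, in full medium. Rhizoid markers were not analysed here, and the part of changed tissue shares in the results was not tested.

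Some genes that rose were neighbours on a chromosome. Of 1035 genes with a 2-fold rise and a chromosome position, 338 (32.7%) lay in 133 runs of neighbouring loci. Of the 64 genes with a 2-fold fall, 13 lay in 6 runs. How many genes of such sets would be neighbours by position alone was not tested. The longest held 9 loci on chromosome 5, Mp5g01630 to Mp5g01710, 8 of them peroxidases from MpPOD51 to MpPOD59. A run of 7 loci without symbols, Mp2g20590 to Mp2g20650 on chromosome 2, held Mp2g20600, at 41.0, 78.8 and 81.6 CPM in the libraries labelled no nitrate, 0.285, 0.469 and 0.625 CPM labelled no phosphate and 0 in full medium. The pair Mp4g19920 and Mp4g19930 on chromosome 4 behaved likewise, the second with 65.8, 96.9 and 108 CPM labelled no nitrate, 0 in all 3 libraries labelled no phosphate and 0, 0.0393 and 0 CPM in full medium. Neighbours that are close copies may share reads.

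Against the libraries labelled no phosphate, 279 of the 1044 genes with a 2-fold rise were called higher, 100 lower and 665 neither, where 17.5% of all tested genes were higher and 14.6% lower (32.1% in either direction). This direct test does not use the full-medium libraries, which the comparisons of both starvation groups with full medium share. All tested PTB genes but MpPTB7, with MpGDPD, MpPPO32, MpPR1o and MpGH19.3 were among those above the libraries labelled no phosphate. MpAMT2.4, MpAMT2.3, MpAMT1.5, MpAMT1.3, MpNPF34 and MpPKS/CHS17 were among those below.

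In Mpwrky10, 23.2% of tested genes were called higher and 16.2% lower in its libraries labelled no nitrate. Of the 2679 wild-type rises 1983 were called higher there too, which is 74.0% of the wild-type rises and 65.6% of those of Mpwrky10, and 20 were called lower. Of the 1807 wild-type falls 1011 were called lower in Mpwrky10, 55.9% of the wild-type falls and 48.1% of those of Mpwrky10. The responses themselves differed in 277 genes (2.13%), 122 (0.937%) with a higher and 155 (1.19%) with a lower value in Mpwrky10. That count ranged widely with the library left out, between 132 without wild-type full-medium library 1 and 331 without Mpwrky10 library 3 labelled no nitrate. It was 164 without wild-type full-medium library 2, 204, 151 and 160 without wild-type labelled-no-nitrate libraries 1, 2 and 3, and 162 without Mpwrky10 library 2 labelled no nitrate.

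**Figure D5:**
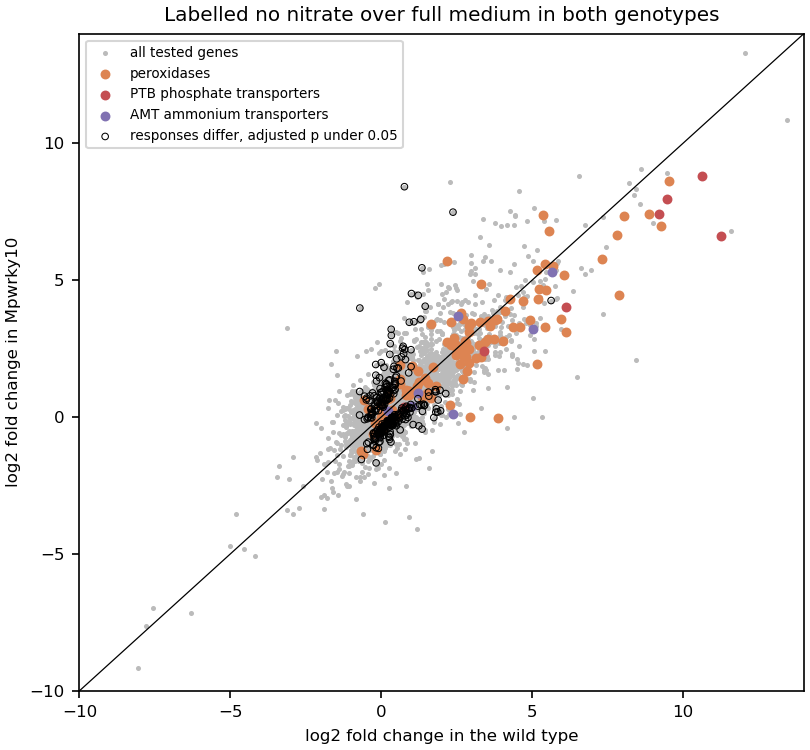
Fitted log2 fold change, labelled no nitrate over full medium, of each tested gene in the wild type (horizontal) and in Mpwrky10 (vertical), with peroxidases, PTB and AMT genes in colour, black rings at the 277 genes whose responses differed, and a line of equal response. MpPTB8 lies at 3.41 and 2.41, below the line.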

How the data were processed

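RNA was sequenced from whole plants. The deposited values were whole-number counts of reads per gene, taken as unnormalized by the authors because the library totals differ. The submitters' processing notes name STAR 2.7 and DESeq2 without their use. The read counter, its strand setting and the genome build are not given in the sources used here, so reads of overlapping genes or close copies may be divided untraceably. Symbols came from a name table of the assembly MpTak2_v7.1, by locus number: 17384 of its 18391 entries matched, 3091 with a symbol.

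Genes were filtered with filterByExpr, 13016 of 19355 being kept, and 1 edgeR 4.0.16 model (R 4.3.3, TMM, robust quasi-likelihood F-test, two-sided) was fitted to all 18 Marchantia libraries. Adjusted p-values are Benjamini-Hochberg over all tested genes, and SE is implied by the fold change and F. CPM use TMM-scaled sizes. The step was tested on simulated data. Replicates of a group differed by 3.55 to 21.2 chi-square per degree of freedom, so none was counted as a copy. Depth makes 1 count worth 0.0393 to 0.056 CPM, and intervals and floors cover counting error only.

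Genes named were the members of the nutrient lists, the 12 largest rises and falls with a symbol, at least 1 CPM and no overlap, and, from every other list, the 4 genes with the lowest adjusted p. Members of the neighbouring runs and genes without a symbol were chosen after their values were seen. The comparison and the lists were chosen with earlier results of these data known. Alternatives were DESeq2 1.42.0 and its size factors, no filter, only the libraries compared, a replicate block and each library left out. Lettuce was not used here.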

Additional observations from a re-analysis of the deposited data

Results flagged for a closer look

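Among the 286 named genes, 12 were picked out because their response to the medium labelled no nitrate differed between Mpwrky10 and the wild type. The test was edgeR's, of the difference itself. Values are log2 differences of the response, Mpwrky10 minus wild type, with Benjamini-Hochberg adjusted p over all tested genes. Named genes outside the nutrient lists were chosen by their wild-type change, which the difference also uses. Neither the number nor the direction of these 12 is therefore read as a result. Over all tested genes 277 differed (2.13%), 122 (0.937%) with a higher and 155 (1.19%) with a lower value in Mpwrky10. Genes of the same lists that were not named passed too, such as MpERF15 at 2.88 and MpNBS-LRR20 at 1.47.

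Of the phosphate and membrane lipid genes 2 passed this test, and no PTB, LPR, VPT or NLA gene did. Tested in these lists were 7 PTB genes, 7 other phosphate genes and 11 membrane lipid genes. Of all tested genes 2.13% passed. MpSPX differed by -0.56 (adjusted p = 0.0113), with log2 fold changes of 0.26 in Mpwrky10 and 0.82 in the wild type. MpGDPD differed by -1.28 (adjusted p = 0.0424), with 0.86 in Mpwrky10 and 2.14 in the wild type.

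Enzymes of phenolics and hormones were also among them. MpPPO55 differed by -1.79 (adjusted p = 0.00248), with -0.44 in Mpwrky10 and 1.35 in the wild type. The glycosyltransferase MpUGT7 differed by -1.10 (adjusted p = 0.00173), with -0.47 in Mpwrky10 and 0.63 in the wild type. MpIAMT1 differed by -1.52 (adjusted p = 0.00881) and the pectin esterase relative MpCE8.3 by -0.57 (adjusted p = 0.0373), with -0.77 in Mpwrky10 and -0.20, not called, in the wild type.

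Of the regulators, MpWRKY1 differed by 0.63 (adjusted p = 0.00906), with 0.32 in Mpwrky10 and -0.32 in the wild type, so that the gene was called in both genotypes with opposite signs. MpERF11 differed by -1.16 (adjusted p = 0.0132), MpERF18 by -0.66 (adjusted p = 0.0187), MpBHLH21 by -0.49 (adjusted p = 0.0113), the autophagy gene MpATG18a by -0.46 (adjusted p = 0.0096) and the immune receptor gene MpNBS-LRR16 by -0.63 (adjusted p = 0.0403). The cause of these differences was not tested.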

How the results depend on the processing

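No result reversed. The count of genes called in the wild type, 4486, was 4064 to 4714 under other settings and 3362 to 4275 with 1 library left out; the lowest came without labelled-no-nitrate library 3, with fewer samples. Genes called with 2-fold change, 1108, were 962 to 1152 under the settings planned and 942 to 1208 with 1 library left out. The direct test against the libraries labelled no phosphate gave 4184 calls, with 3278 to 3627 when 1 library was left out, and Mpwrky10 gave 5128, with 4148 to 4802. Genes whose response differed between genotypes, 277, were 416 with the replicate block, 159 with only the libraries compared, 563 with the DESeq2 Wald test and 132 to 331 with 1 library left out; the cause of the first 3 was not tested. Whether replicate numbers pair the libraries was not settled. Same-numbered wild-type libraries had correlations of 0.245, -0.0559 and 0.217 in their deviations, and differently numbered ones -0.304 to 0.167. The main model did not use replicate numbers, and with the block the wild type gave 4714 calls. Of 286 named genes 228 were called, and 184 under every setting. Depth limits genes with few counts in full medium, whose fitted fold changes are no bounds.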

Other observations

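Other gene groups that no comparison above describes moved as follows, where 20.6% of all tested genes were called higher and 13.9% lower. Of 36 tested late embryogenesis abundant proteins, known from drought tolerance, 13 rose and 3 fell in the libraries labelled no nitrate against full medium. MpLEA-like55 had 107, 126 and 131 CPM in the libraries labelled no nitrate and 54.4, 64.0 and 73.3 CPM in full medium (log2 0.92 ± 0.11, adjusted p = 1.46e-05 in edgeR's quasi-likelihood test). Of 29 ABCG transporters 10 were higher (34.5%) and 4 lower (13.8%), the latter near the share of all tested genes. MpABCG20 had 69.3, 76.5 and 78.2 CPM, against 12.9, 10.2 and 8.27 CPM in full medium (log2 2.84 ± 0.30, adjusted p = 1.16e-05). Autophagy genes, which recycle cell contents, were mostly not called: 2 of 21 were higher (9.52%) and 1 lower (4.76%).

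Of 85 cytochrome P450 genes 30 were higher (35.3%) and 8 lower (9.41%), against 20.6% and 13.9% of all tested genes. Of 19 genes named TPS, MTPSL, FTPSL or CPT 13 were higher and 0 lower, and MpTPS6 had 42.4, 64.8 and 60.2 CPM in the libraries labelled no nitrate and 3.78, 2.83 and 1.95 CPM in full medium (log2 4.28 ± 0.32, adjusted p = 5.83e-07). Rises of 2-fold or more were 11.2% of tested genes on chromosome 5, 10.0% on chromosome 4 and 4.92% on chromosome 1, against 8.02% of all tested genes.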
